A study of Homo sapiens with 18 samples.

Results

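In Cal51, a cell line from a human breast cancer, the mitochondrial genome gave 28 of the 3508 genes that the authors' deposited table listed as changed by fenofibrate plus ezetimibe. These are all genes of the table placed on chromosome MT, 13 messenger RNAs and 15 transfer RNAs, and the 3 deposited tables together hold 3647 genes. The series has 18 libraries in 6 groups of 3, and 6 of these libraries carry the values used here. They come from Cal51 cells given fenofibrate plus ezetimibe for 8 h, here called the combination, and from Cal51 cells given DMSO, the solvent, for 8 h. Fenofibrate, a fibrate used to lower blood lipids, acts on the nuclear receptor PPARα, and ezetimibe blocks the sterol transporter NPC1L1. The labels state neither a dose nor whether replicates came from separate cultures, so p-values measure the spread between these libraries, which may be technical. A further 6 libraries, of cells without PKM2 and of their control, are not analysed here. The same DMSO libraries were set against fenofibrate alone and against ezetimibe alone in the other deposited tables, of 102 and 472 genes, and these list 0 mitochondrial genes. Each table is limited to genes whose log2 fold change exceeds 1 in either direction at an adjusted p below 0.05. A large change of every member is therefore fixed by the listing and is not a finding, and mitochondrial transcripts with either drug alone are not listed rather than shown to be unchanged.

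Mitochondrial DNA is a small circle that is transcribed on both strands into long RNAs spanning many genes. Most mRNAs lie between tRNA genes, and cutting the tRNAs out of the precursor frees the mRNAs, which is known as the tRNA punctuation model. The mRNAs encode core subunits of complexes I, III and IV of the respiratory chain and of the ATP synthase, complex V, while complex II is encoded wholly in the nucleus. The tRNAs and 2 ribosomal RNAs serve the ribosomes inside the organelle. All genes on the plus strand are read from the heavy-strand promoter region, and MT-ND6 with several tRNAs is read from the light-strand promoter on the minus strand.

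The annotation (GENCODE 29, GRCh38, the build the submitters' processing notes name as hg38) has 37 mitochondrial genes, and start, end and strand were equal for 28 of 28 members. Of these genes 13 of 13 mRNAs, 15 of 22 tRNAs and 0 of 2 rRNAs were listed. The 9 genes not listed were MT-RNR1, MT-RNR2, MT-TF, MT-TW, MT-TA, MT-TG, MT-TR, MT-TL2 and MT-TE. MT-ND6 and 6 listed tRNAs (MT-TQ, MT-TN, MT-TC, MT-TY, MT-TS1 and MT-TP) lie on the minus strand, and the other 12 mRNAs and 9 tRNAs on the plus strand.

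The transfer RNAs with enough reads to compare are short genes of 66 to 75 bases. The 5 sequences below, from the GENCODE transcripts, are those whose DMSO mean was at least 50 normalised counts. They supplied most of the summed count of the listed tRNAs. The filter used the DMSO libraries only, and MT-TY averaged 44.8 with the combination. Capitals mark the anticodon, found as the 3 middle bases of a loop closed by a stem of up to 5 pairs, with a match to the labelled amino acid required. It was found for 15 of 15 listed tRNAs.
MT-TL1: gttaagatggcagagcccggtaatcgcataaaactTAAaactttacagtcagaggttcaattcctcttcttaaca
MT-TN: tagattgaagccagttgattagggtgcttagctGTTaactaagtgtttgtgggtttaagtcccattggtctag
MT-TC: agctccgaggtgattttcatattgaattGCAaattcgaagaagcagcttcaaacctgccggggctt
MT-TY: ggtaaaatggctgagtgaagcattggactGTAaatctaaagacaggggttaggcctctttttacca
MT-TP: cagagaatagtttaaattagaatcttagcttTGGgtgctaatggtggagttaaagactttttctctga
MT-TL1 carries leucine and ends next to MT-ND1, MT-TN carries asparagine, MT-TC cysteine, MT-TY tyrosine and MT-TP proline. MT-TC and MT-TY share 1 base, and both lie upstream of MT-CO1 on the strand opposite to it.

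Values are normalised read counts, that is reads divided by 1 factor per library, and 1 read was worth 0.918 to 1.10 of them. The combination libraries held 2550718 to 2890139 reads in the listed genes and the DMSO libraries 2985068 to 3265200, and the total depth is unknown because other genes are not in the table. Replicates differed by more than sampling noise in every pair (chi-square of the counts, 2.83 to 23.6 per degree of freedom). Combination replicate 1 had the highest value of its group for 11 of 13 mRNAs and DMSO replicate 3 for 11 of 13. Defining markers of the cell type could not be checked, since 0 of 16 epithelial, mesenchymal and blood or endothelial markers were listed in the combination table. The endothelial marker CDH5 was listed as lower with ezetimibe alone.

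Mitochondrial transcripts, which fill the top of this table's expression range, fell to a far smaller share of the reads. Mitochondrial genes took 7.22, 6.25 and 6.28% of the reads in listed genes in the combination libraries, against 22.0, 20.5 and 24.8% in the DMSO libraries. By DMSO mean count, 9 of the 10 highest genes of the table were mitochondrial mRNAs. The 13 mRNAs summed to 201274, 166851 and 168995 normalised counts in the combination libraries, against 664142, 610911 and 786861 in the DMSO libraries. That is 26.0% of the DMSO mean, a log2 difference of -1.94 ± 0.14 (SE). The 15 listed tRNAs summed to 623, 453 and 461 normalised counts in the combination libraries, against 3352, 2737 and 3491 in the DMSO libraries, or 16.0% of the DMSO mean and a log2 difference of -2.65 ± 0.18. The groups did not overlap in either sum. Neither sum was tested, because each holds only genes that passed the listing on these same libraries. The exact permutation test (2-sided), used further on for ratios, gives p = 0.1 at the smallest with 3 libraries against 3. Because RNA was taken from whole cultures, fewer cells that hold these transcripts and less of them per cell cannot be told apart.

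Each gene was tested with limma on log2(value + 1), adjusted by Benjamini-Hochberg over all 3508 genes. The fit called 28 of 28 members lower, beside 41.3% of all genes of the table (100% in either direction). Every combination library lay under every DMSO library for 27 of 28 members, beside 41% of all genes (99% without overlap in either direction). The listing itself brings such calls about, so nothing is read from these shares. The median log2 fold change of the members was -2.21, with a range from -3.94 to -1.41, against 1.16 over all 3508 genes and -1.44 over the 1450 genes that fell. Setting MT-TS2, which had no read with the combination, at a floor of 3 reads over that group gives a median of -2.19. In the 253 nuclear genes that fell from a DMSO mean of at least 2000 the median was -1.32. Scaling the libraries over the listed genes moved the median of all genes by -0.21 (TMM) or -0.80 (median of ratios), and the member median was then -2.38 or -2.91. All 28 members were called lower under both, beside 1450 genes of the whole table called lower under both.

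**Figure D1:**
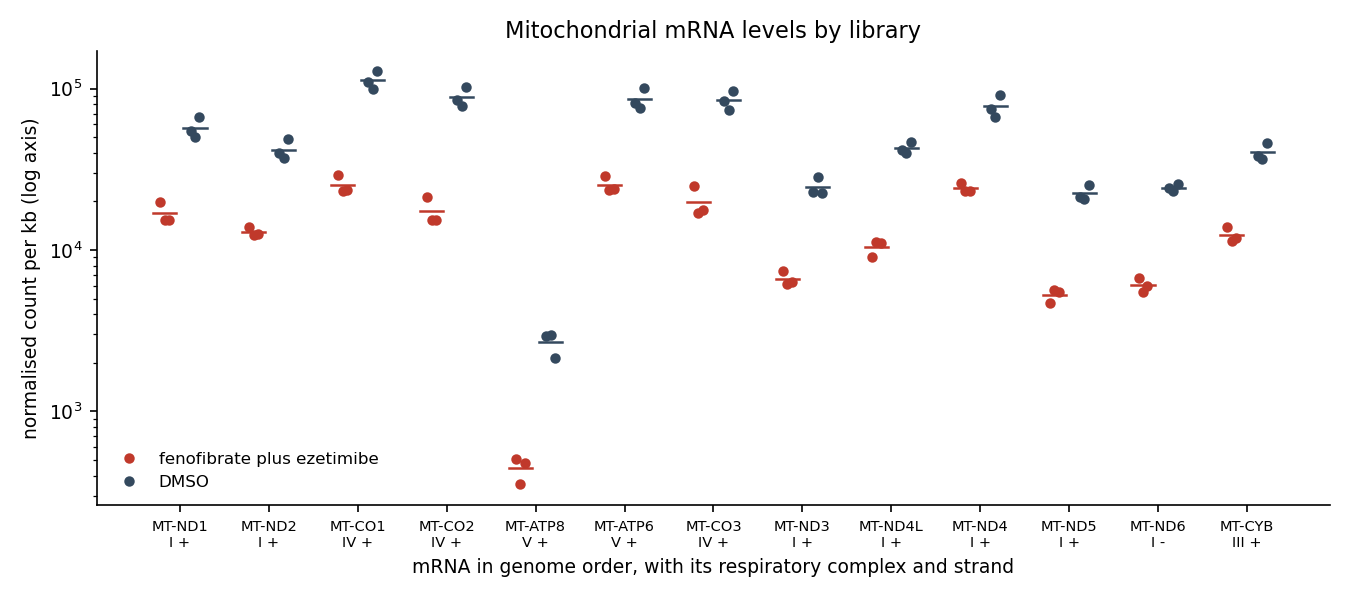
Normalised count per kilobase of gene length (log axis) of the 13 mitochondrial mRNAs in genome order, with the respiratory complex and strand under each name. Points are single libraries of fenofibrate plus ezetimibe (left) and DMSO (right), and lines are group means. The groups do not overlap for any of the 13 mRNAs, and MT-ATP8 lies far below the others in both groups.

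The 7 mRNAs of complex I, the NADH dehydrogenase that feeds electrons into the chain, fell by 3.22-fold to 4.28-fold. MT-ND4, a proton-pumping membrane subunit (MT, 10760 to 12137, plus strand), had 35951, 31874 and 31950.5 normalised counts in the combination libraries, against 103402, 91616 and 125795 in the DMSO libraries. Its log2 fold change was -1.67 ± 0.14 (adjusted p = 1.69e-06, limma), the smallest among the 13 mRNAs. MT-ND2, another membrane subunit (4470 to 5511), had 14527, 12973 and 13142 with the combination, against 41673, 38892 and 50612 with DMSO, a log2 fold change of -1.68 ± 0.13 (adjusted p = 7.45e-07). MT-ND4 thus kept 31.1% of its DMSO level and MT-ND2 31.0%.

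MT-ND5, the membrane subunit at the far end of the arm (12337 to 14148), had 8487, 10202 and 9927 normalised counts with the combination, against 38686, 37671 and 46068 with DMSO (log2 fold change -2.10 ± 0.12, adjusted p = 1.90e-07, limma). MT-ND4L, a small membrane subunit (10470 to 10766), had 2703, 3319 and 3303 with the combination, against 12369.7, 11830.1 and 13802 with DMSO (-2.03 ± 0.11, adjusted p = 1.49e-07). In these 2 genes combination replicate 1 was the lowest of its group, while it was the highest for the other 11 mRNAs. The log2 ratio of MT-ND5 to MT-ND4 within a library was lower with the combination, with a difference of -0.42 ± 0.15. MT-ND1, which sits where ubiquinone is reduced (3307 to 4262), averaged 16116 ± 2403 with the combination and 54873 ± 8168 with DMSO (SD, n = 3 each, 3.40-fold lower). MT-ND3 (10059 to 10404) averaged 2297 ± 231 with the combination and 8512 ± 1078 with DMSO, 3.71-fold lower.

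MT-ND6 is the single mRNA on the minus strand (14149 to 14673) and encodes a further membrane subunit of complex I. It had 3530.3, 2885 and 3138 normalised counts with the combination, against 12677, 12213 and 13538 with DMSO, and its log2 fold change was -2.01 ± 0.11 (adjusted p = 1.05e-07, limma). Its level fell about as much as the plus-strand mRNAs did on average. Measured within each library against the mean log2 value of the 12 plus-strand mRNAs, it differed by -0.03 ± 0.03 between combination and DMSO, and the groups overlapped (exact permutation test, p = 0.5, and 0.5 after adjustment over 13 ratios). The sources used here do not say whether reads were counted by strand. If they were not, antisense reads of the long transcript opposite MT-ND6 and the minus-strand tRNAs cannot be told apart from their own.

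MT-CYB, cytochrome b and the single mitochondrial subunit of complex III (14747 to 15887), had 15807, 12936 and 13462 normalised counts with the combination, against 43625, 41691 and 52545 with DMSO. It kept 30.6% of its DMSO mean, with a log2 fold change of -1.71 ± 0.13 (adjusted p = 8.49e-07, limma). The groups stood well apart, as for the other mRNAs, and the fall was among the smallest 3.

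The 3 mRNAs of complex IV, cytochrome c oxidase, which passes electrons to oxygen, fell by 4.27-fold to 5.12-fold, which overlaps the range of complex I. MT-CO1, the catalytic subunit (5904 to 7445), had 45109.5, 35821 and 36305 normalised counts with the combination, against 170435, 154603 and 197341 with DMSO (log2 fold change -2.16 ± 0.15, adjusted p = 4.44e-07, limma). It was the most abundant mitochondrial mRNA of both groups by count. MT-CO2, the subunit that receives electrons from cytochrome c (7586 to 8269), had 14537, 10494 and 10576 with the combination, against 58578, 53753 and 69939.8 with DMSO. Its log2 fold change of -2.36 ± 0.16 (adjusted p = 3.53e-07) was the largest fall among the mRNAs other than MT-ATP8. MT-CO3 (9207 to 9990) had 19540.1, 13308 and 13957 with the combination, against 65923, 57992 and 75761 with DMSO (-2.11 ± 0.17, adjusted p = 1.01e-06). In all 3 genes combination replicate 1 was higher than the other combination libraries. Against the mean of the 13 mRNAs, described further on, MT-CO2 was called, while MT-CO1 (-0.17 ± 0.11, adjusted p = 0.163, limma) and MT-CO3 (-0.12 ± 0.12, adjusted p = 0.379) were not.

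The 2 mRNAs of complex V, the ATP synthase, lie on 1 transcript and overlap by 46 bases. MT-ATP6, part of the proton channel (8527 to 9207), had 19526, 16156 and 16159.6 normalised counts with the combination, against 55839, 52030.2 and 69192 with DMSO (log2 fold change -1.77 ± 0.14, adjusted p = 1.06e-06, limma). MT-ATP8, a small membrane subunit (8366 to 8572), had 105, 73.2 and 98.6 with the combination, against 609, 614 and 445 with DMSO (-2.58 ± 0.19, adjusted p = 6.69e-07). MT-ATP8 thus fell 6.02-fold and MT-ATP6 3.42-fold, and per kilobase MT-ATP8 lay far under MT-ATP6, at 446 ± 81.7 against 25375 ± 2855 in the combination libraries and 2687 ± 465 against 86667 ± 13233 in the DMSO libraries (SD, n = 3 each). Their log2 ratio was lower with the combination, with a difference of -0.81 ± 0.30. The sources used here do not say how reads over both genes were counted, and the part of this in these values was not tested.

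Per kilobase of gene length the order of the mRNAs was nearly kept. In DMSO libraries MT-CO1 was highest at 112922 ± 14012 normalised counts per kb, followed by MT-CO2 at 88826 ± 12150, MT-ATP6, MT-CO3 at 84896 ± 11354 and MT-ND4 at 77604 ± 12599. The ranges of the last 4 overlapped, but within each DMSO library MT-CO2 was the highest and MT-ND4 the lowest of these 4, and MT-ATP6 and MT-CO3 changed places between libraries. In combination libraries MT-ATP6 and MT-CO1 (25343 ± 3391) changed places between libraries and lay above MT-ND4 (24135 ± 1692) in each library, and MT-CO3 and MT-CO2 came next at 19900.1 ± 4370.2 and 17352 ± 3379. MT-ND3, MT-ND6, MT-ND5 and MT-ATP8 were the lowest 4 in both groups, in that order by group mean. MT-ATP8 was the lowest in each library. MT-ND3, MT-ND6 and MT-ND5 changed places between DMSO libraries, and MT-ND6 and MT-ND5 between combination libraries. Across the 13 mRNAs the log2 levels per kb of the 2 groups had a Pearson r of 0.99 and a Spearman rho of 0.93, a description over genes that share libraries.

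**Figure D2:**
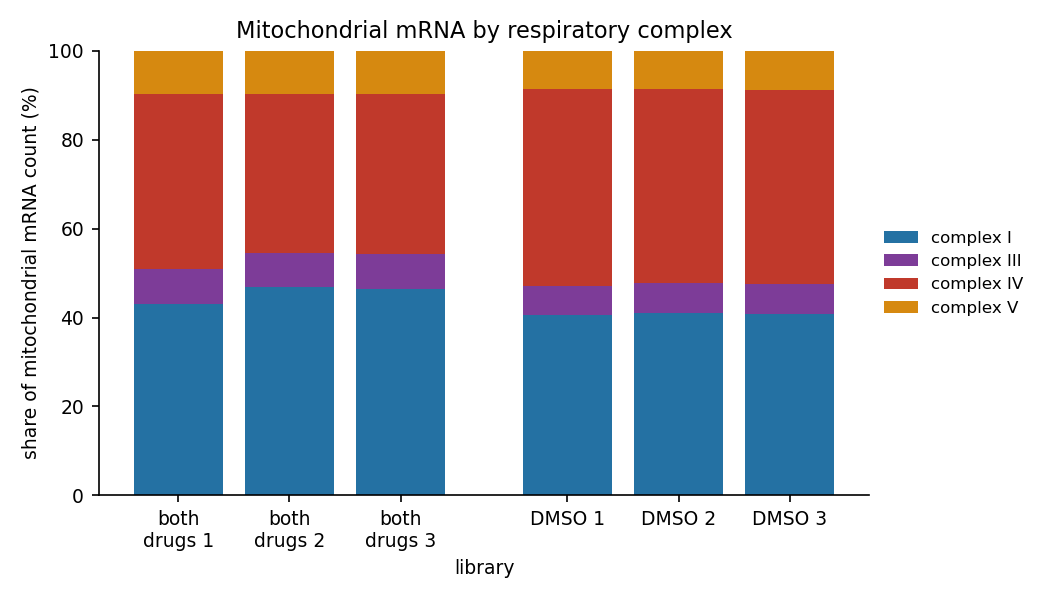
Share (%) of the summed mitochondrial mRNA count taken by the mRNAs of complexes I, III, IV and V in each of the 3 libraries of both drugs (fenofibrate plus ezetimibe, left) and of DMSO (right). The complex IV band is narrower with both drugs, 35.7 to 39.3%, than with DMSO, 43.6 to 44.4%.

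In the make-up of the remaining mitochondrial mRNA the summed complex IV mRNAs took a smaller share. They held 35.7 to 39.3% of the summed mitochondrial mRNA count in the combination libraries, with replicate 1 highest, against 43.6 to 44.4% in the DMSO libraries. Complex I mRNAs took 43.1, 46.8 and 46.4% with the combination, against 40.5, 41.0 and 40.9% with DMSO. The share of MT-CYB was 7.85, 7.75 and 7.97% with the combination, against 6.57, 6.82 and 6.68% with DMSO, and that of complex V was 9.75, 9.73 and 9.62% with the combination, against 8.50, 8.62 and 8.85% with DMSO. None of these 4 shares overlapped between the groups. Since shares sum to a whole, a lower share of complex IV and higher shares of the rest are 1 observation. Within complex IV, MT-CO1 held 21.8 ± 0.541% with the combination and 25.3 ± 0.294% with DMSO, and MT-CO2 6.59 ± 0.548% with the combination and 8.84 ± 0.0468% with DMSO (SD, n = 3 each), both with no overlap. The share of MT-CO3 overlapped between the groups, at 9.71, 7.98 and 8.26% with the combination, against 9.93, 9.49 and 9.63% with DMSO. Within complex I, MT-ND4 held 18.6 ± 0.667% with the combination and 15.5 ± 0.497% with DMSO, and MT-ND1 and MT-ND2 were likewise higher with no overlap. MT-ND3, MT-ND4L, MT-ND5 and MT-ND6 overlapped, and the mean share of MT-ND5 was lower, at 5.40 ± 1.03% with the combination and 5.95 ± 0.189% with DMSO.

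Ratios of mean log2 values, which weigh every mRNA of a complex alike, were computed within each library and do not depend on the scaling between libraries. Relative to complex I, complex IV was lower with the combination, with a log2 difference of -0.33 ± 0.12 (SE), and complex III was higher by 0.17 ± 0.07. Groups did not overlap in either ratio, and each gave the smallest possible exact permutation p = 0.1 (2-sided, 0.13 after Benjamini-Hochberg adjustment over the 13 ratios computed). Complex V differed from complex I by -0.29 ± 0.12 and the groups overlapped (exact permutation p = 0.2, adjusted 0.236). MT-ATP6 alone, without MT-ATP8, gave a difference of the other sign, 0.11 ± 0.08, again with overlap (exact permutation p = 0.3, adjusted 0.325). It was 0.05 without combination replicate 1, 0.07 without DMSO replicate 2 and at most 0.16 with another library left out. For MT-CO2 against MT-ATP6, neighbours on the plus strand, the log2 ratio differed by -0.60 ± 0.07, with values of -0.43, -0.62 and -0.61 in combination libraries and 0.07, 0.05 and 0.02 in DMSO libraries, and no overlap. This pair, like MT-ND5 with MT-ND4, MT-ND4L with MT-ND4, MT-ATP8 with MT-ATP6 and MT-TL1 with MT-ND1, was chosen after its values were seen, as were MT-ATP6 alone and the ratio of the 5 more abundant tRNAs. Each of these 5 pairs had no overlap between groups, which the choice itself favours, so no test of them is given. The 13 ratios of the adjustment include these pairs and the ratios of listed tRNAs. Ratios picked in this way reach the smallest possible p, so including them makes the adjusted p of the other ratios smaller. The adjusted values are therefore given as a description.

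**Figure D3:**
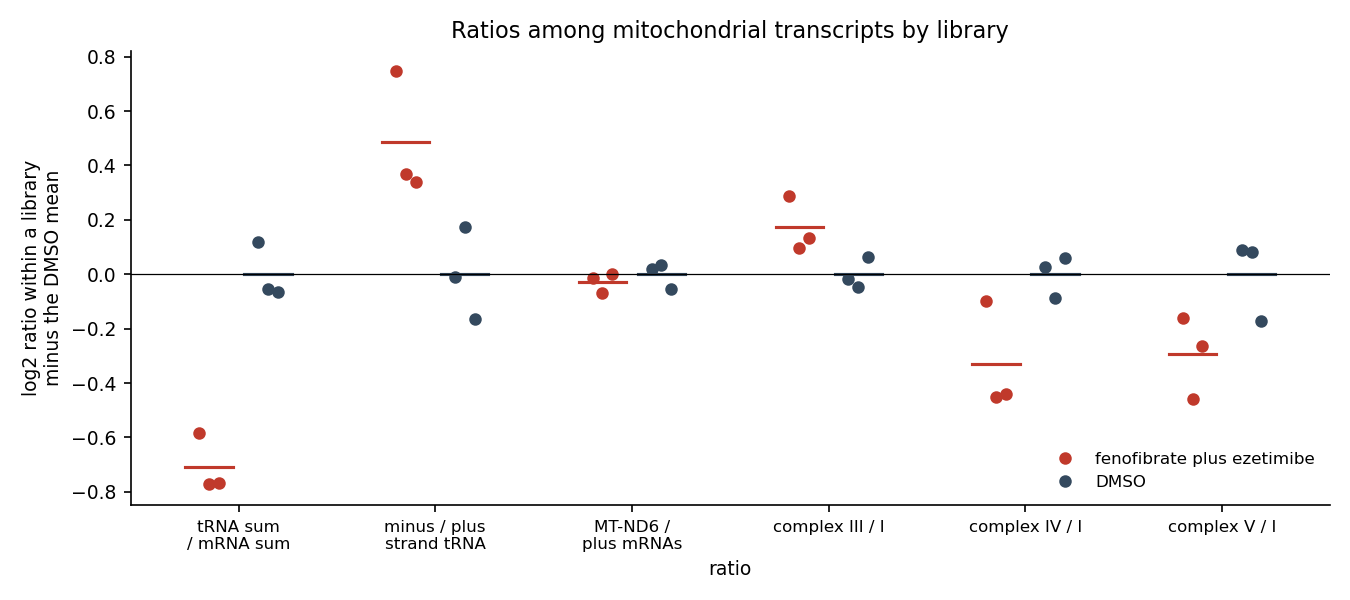
Log2 ratios among mitochondrial transcripts within each library, less the DMSO mean of that ratio, for 6 ratios on the x axis. Points are libraries of fenofibrate plus ezetimibe (left) and DMSO (right), and lines are group means. The ratio of listed tRNA to mRNA is lower with both drugs (a difference of -0.71), the listed minus-strand to plus-strand tRNA ratio higher by 0.48, and MT-ND6 against the plus-strand mRNAs overlaps between the groups.

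Which members changed by a different amount than the mitochondrial mRNAs as a whole was tested by subtracting each library's mean over the 13 mRNAs before the limma fit. The fit called 11 of 28 members, beside 83.5% of all genes of the table, most of which rose or fell by less than these mRNAs. Of the 11, 8 fell by more, beside 2.79% of all genes, namely MT-CO2, MT-ATP8, MT-TC, MT-TL1, MT-TY, MT-TN, MT-TT and MT-TM. Genes of the table that rose cannot be called so, while every member was listed as lower. Nothing is therefore read from the contrast of these shares. The 3 that fell by less were MT-ND2 (0.30 ± 0.10, adjusted p = 0.0192), MT-ND4 (0.31 ± 0.11, adjusted p = 0.0222) and MT-CYB (0.28 ± 0.10, adjusted p = 0.0250). MT-CO2 differed by -0.38 ± 0.12 (adjusted p = 0.0112). The count was 6 without combination replicate 2, without combination replicate 3 or without DMSO replicate 1, and 7 without DMSO replicate 2. MT-TL1, MT-TC and MT-TY were called in 10 of 10 alternative settings and MT-CO2 in 8 of 10, MT-TT in 9 of 10, MT-ATP8 in 7 of 10, MT-TN in 6 of 10 and MT-TM in 6 of 9. Of the 3 that fell by less, MT-ND4 and MT-CYB were called in 5 of 10 and MT-ND2 in 6 of 10.

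**Figure D4:**
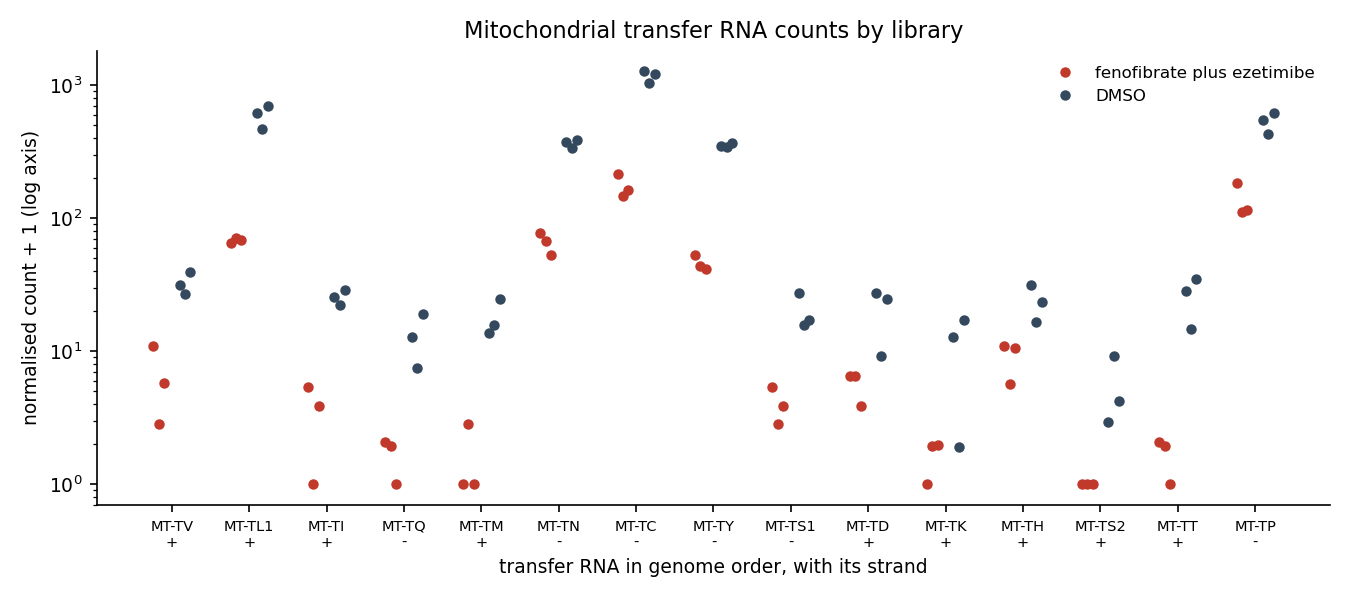
Normalised count plus 1 (log axis) of the 15 listed mitochondrial tRNAs in genome order, with the strand under each name. Points are single libraries of fenofibrate plus ezetimibe (left) and DMSO (right), and a value of 1 is a count of 0. The 5 tRNAs with a DMSO mean of at least 50 stand apart from the other 10, and groups overlap for MT-TK.

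The listed tRNAs kept a smaller part of their DMSO level than the mRNAs did, but all 13 mRNAs and only 15 of 22 tRNAs passed the listing. The 7 tRNAs left out by it have no values, so the tRNA sum was chosen in part by the change it measures, and it is given as a description with no test. Of the 15, 6 were called lower than the mRNA mean. A tRNA with few reads passes the listing only with a large fall. Such calls therefore describe single listed tRNAs and do not test tRNAs as a class. MT-TP (0.01), MT-TD (0.24) and MT-TH (0.58) had log2 differences above 0 that were not called. The log2 ratio of summed tRNA to summed mRNA was -8.33, -8.52 and -8.52 in the combination libraries, against -7.63, -7.80 and -7.82 in the DMSO libraries, a difference of -0.71 ± 0.09 with no overlap. The 5 tRNAs with a DMSO mean of at least 50 alone gave -0.70 ± 0.08. They were picked by their level in DMSO, after the values were seen, so this value adds no separate support. The labels name an mRNA sequencing kit and total RNA, so counts over tRNA genes can hold mature tRNA, precursors and reads of neighbouring genes, and which of these they are was not tested.

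MT-TC, the listed tRNA with the highest count (5761 to 5826, minus strand), had 213, 145 and 163 normalised counts with the combination, against 1264, 1031 and 1206 with DMSO. Its log2 fold change was -2.75 ± 0.16 (adjusted p = 1.61e-07, limma), and it differed from the mRNA mean by -0.77 ± 0.15 (adjusted p = 0.000625). MT-TY, which abuts it (5826 to 5891, minus strand), had 51.5, 42.6 and 40.2 with the combination, against 349, 339.7 and 365 with DMSO (-2.95 ± 0.17, adjusted p = 1.79e-07), and differed from the mRNA mean by -0.96 ± 0.18 (adjusted p = 0.000476). The remaining listed member of this minus-strand cluster, MT-TN (5657 to 5729), had 75.6, 66.7 and 51.7 with the combination, against 375, 337 and 386 with DMSO (-2.50 ± 0.18, adjusted p = 6.17e-07). Its difference from the mRNA mean, -0.51 ± 0.19 (adjusted p = 0.0257), was called in 6 of 10 alternative settings.

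MT-TL1, the leucine tRNA that follows the rRNA genes (3230 to 3304, plus strand), had 63.6, 69.5 and 67.0 normalised counts with the combination, against 615, 469 and 693 with DMSO. It fell 8.88-fold (log2 -3.11 ± 0.17, adjusted p = 1.39e-07, limma), the largest fall among the 5, and differed from the mRNA mean by -1.13 ± 0.18 (adjusted p = 0.000171). Its neighbour MT-ND1, only 2 bases away, fell 3.40-fold. The log2 ratio of MT-TL1 to MT-ND1, a pair chosen after its values were seen, differed by -1.35 ± 0.17, with no overlap. MT-TP (15956 to 16023, minus strand) stood apart from the other 4 tRNAs. It had 183, 110.3 and 115 with the combination, against 546, 431 and 618 with DMSO (-1.98 ± 0.21, adjusted p = 8.21e-06), and its difference from the mRNA mean was 0.01 ± 0.19 (adjusted p = 0.98).

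The other 10 tRNAs had DMSO means under 50 and are given in reads summed over 3 libraries. MT-TV (valine) had 16 reads with the combination and 95 with DMSO, MT-TI (isoleucine) 7 and 74, MT-TS1 (serine) 9 and 58, MT-TD (aspartate) 14 and 58, and MT-TH (histidine) 24 and 69. MT-TH was the least changed member, at -1.41 ± 0.40 on the log2 scale (adjusted p = 0.00561, limma), and 21.5% of the table's genes fell at least as much. For 4 tRNAs the combination libraries held 2 reads in all, and the ratio of normalised counts is given with its 95% exact interval, which covers counting error only. MT-TT (threonine) had 75 reads with DMSO and a ratio of 0.0268 (0.00319 to 0.1002), MT-TM (methionine) 51 reads and 0.0394 (0.00465 to 0.150), MT-TQ (glutamine) 36 reads and 0.0558 (0.00651 to 0.217), and MT-TK (lysine) 28 reads and 0.0718 (0.00828 to 0.285).

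MT-TS2, the second serine tRNA, had 0 reads with the combination and 14 with DMSO. With the combination set to a floor of 3 reads summed over its libraries, it was 4.65-fold lower. Its 95% exact interval, which covers counting error only, starts at 3.30-fold lower. MT-TK had normalised counts of 0, 0.927 and 0.958 with the combination, against 11.7, 0.918 and 16.0 with DMSO, and was the 1 member whose groups overlapped. Its call (adjusted p = 0.0143, limma) was lost without combination replicate 1, DMSO replicate 1 or DMSO replicate 3, where the adjusted p reached 0.0779. The difference from the mRNA mean was -1.96 ± 0.47 for MT-TT (adjusted p = 0.00262) and -1.63 ± 0.54 for MT-TM (adjusted p = 0.0163), values that depend on the added 1 at such counts.

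By strand, the 6 listed minus-strand tRNAs kept 17.3% of their DMSO mean and the 9 listed plus-strand tRNAs 11.9%. MT-TA and MT-TE on the minus strand and MT-TF, MT-TW, MT-TG, MT-TR and MT-TL2 on the plus strand were not listed, so these sums describe the listed tRNAs and not the strands, and no test is given. The minus-strand sum was 528, 368 and 373 normalised counts with the combination, against 2572, 2159 and 2609.7 with DMSO, and the plus-strand sum 94.3, 85.2 and 88.1 with the combination, against 780.4, 577 and 882 with DMSO. The log2 ratio of listed minus-strand to plus-strand tRNA was higher with the combination by 0.48 ± 0.16, with no overlap. MT-TP and MT-TC supply most of the minus-strand sum and MT-TL1 most of the plus-strand sum, so the ratio is mainly that of these 3 genes. It was highest in combination replicate 1, and without that library the difference was 0.35.

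**Figure D5:**
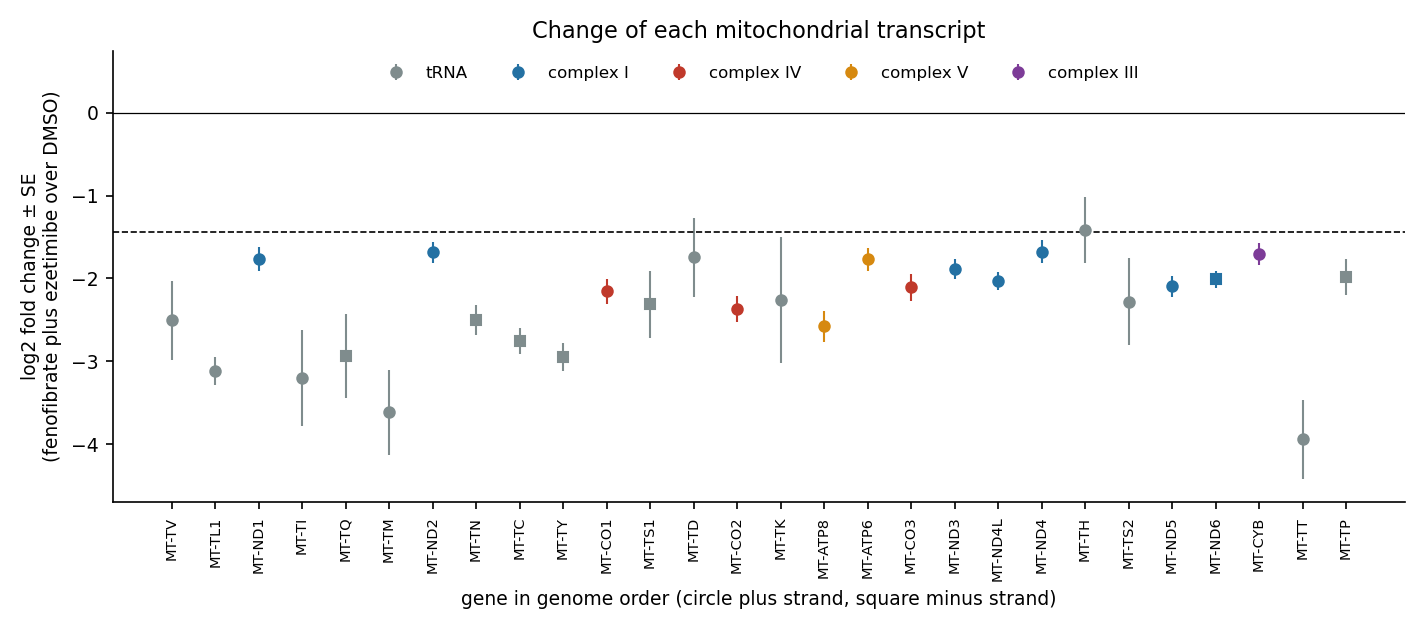
Log2 fold change of fenofibrate plus ezetimibe over DMSO (limma, ± SE) for the 28 members in genome order, coloured by respiratory complex or tRNA, with circles for the plus strand and squares for the minus strand. The dashed line is the median of the 1450 genes of the table that fell, -1.44. The mRNAs lie between -2.58 and -1.67, and tRNAs spread more widely, from -3.94 to -1.41.

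Position along the genome was set against the size of the fall. For the 12 plus-strand mRNAs the log2 fold change against start position had a Pearson r of 0.05 and a Spearman rho of 0.22, and without MT-ATP8 these were 0.03 and 0.17 (n = 11). For the 5 tRNAs with a DMSO mean of at least 50, on both strands, r was 0.91 and rho 0.60, with smaller falls at higher positions, a value over few points. MT-ND4L and MT-ND4 share a transcript and overlap by 7 bases, yet their log2 ratio differed by -0.36 ± 0.17, at -3.73, -3.26 and -3.27 in combination libraries, against -3.06, -2.95 and -3.19 in DMSO libraries. Without combination replicate 1 that difference was -0.20. Against the log2 DMSO level per kb, the log2 fold change of the 13 mRNAs had r = 0.47 and rho = -0.01, and r = -0.16 and rho = -0.29 without MT-ATP8. All points in these descriptions share their libraries and, in part, their precursors.

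Mitochondrial mRNAs end in different ways, and the ends of 4 of them are shown because the members that fell least and most lie in different groups. The last 30 bases of the annotated gene are given, which need not be the end of the mRNA, with the encoded bases of the stop codon in capitals.
MT-ND4: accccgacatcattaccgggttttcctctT
MT-CYB: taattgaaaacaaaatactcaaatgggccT
MT-CO1: ttcgaagaacccgtatacataaaatctAGA
MT-CO2: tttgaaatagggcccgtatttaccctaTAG
In MT-ND4 and MT-CYB the gene ends within the stop codon, which the poly(A) tail completes. In MT-CO1 (AGA) and MT-CO2 (TAG) the annotated stop codon is encoded whole. The 6 mRNAs with such a partial stop codon in the annotation (MT-ND1, MT-ND2, MT-CO3, MT-ND3, MT-ND4 and MT-CYB) had a median log2 fold change of -1.74, from -2.11 to -1.67. The 7 annotated with a full one had a median of -2.10, from -2.58 to -1.77, so the ranges overlap. The split follows the annotation only. MT-ATP6 (-1.77) shares the last base of its stop codon with MT-CO3 (-2.11), so its mRNA may also end within the stop codon. The stop codons of MT-ATP8 and MT-ND4L lie where these genes overlap MT-ATP6 and MT-ND4, so they need not be mRNA ends. This grouping was made after the values were seen and was not tested.

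Some reads of the mitochondrial mRNAs may fall on near-identical nuclear copies, and counts of such pairs are uncertain. Of these pseudogenes 6 were listed, all of them lower, and their reads cannot be told apart from those of their parents. MTATP6P1 (chromosome 1, 633696 to 634376), 98.5% identical to MT-ATP6, averaged 1093 ± 90.3 normalised counts with the combination and 3956 ± 290 with DMSO (SD, n = 3 each), a log2 fold change of -1.86 ± 0.10 beside -1.77 for MT-ATP6. It held 6.33% of the count of its parent with the combination and 6.70% with DMSO. MTND2P28 (chromosome 1, 629640 to 630683), 98.4% identical to MT-ND2, averaged 671 ± 87.4 with the combination and 2597 ± 235 with DMSO, or 4.96% and 5.94% of MT-ND2. MTCO1P12, 98.7% identical to MT-CO1, stood at 0.269% of its parent with the combination and 0.292% with DMSO. MTND1P23, MTCO3P12 and MTND4P12 were listed with DMSO means under 50.

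Nuclear subunits join these mitochondrial proteins in the respiratory complexes. Of 79 nuclear subunits in 5 lists, 7 were listed as lower and 0 as higher, while 41.3% of all 3508 listed genes were lower. No listing rate over all genes can be computed from a table of listed genes. The lists were chosen with earlier results known, and these counts were not tested. In complex I this was 1 of 37 (NDUFB3, an accessory subunit, log2 -1.53 ± 0.15), in complex II 0 of 4, and in complex III 3 of 9 (UQCR10, UQCRH and UQCRB, small subunits, at -1.20, -1.02 and -1.01). In complex IV it was 1 of 11 (COX7B, a small subunit, -1.27 ± 0.17) and in complex V 2 of 18 (ATP5MC3, which encodes the ring subunit c, -1.30 ± 0.12, and ATP5MF, -1.05 ± 0.13). ATP5MC3 averaged 1259 ± 205 normalised counts with the combination and 3085 ± 120 with DMSO (SD, n = 3 each). The 7 log2 fold changes, from -1.53 to -1.01, were all smaller in size than the smallest among mitochondrial mRNAs, -1.67. The other subunits are not listed, so smaller changes cannot be seen.

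Of the nuclear genes of mitochondrial gene expression and quality control, 10 of 185 matched members of 7 lists were listed, 5 higher and 5 lower, while 41.3% of all 3508 listed genes were lower. The lists of transcription machinery (10 genes, among them the polymerase POLRMT and the activator TFAM), mitochondrial ribosomal proteins (76 matched) and regulators of mitochondrial biogenesis (11 genes) had 0 members listed. Among 37 genes of RNA processing and decay, SUPV3L1, the helicase of the mitochondrial RNA degradosome, was higher. It had 2239, 1869.9 and 1826 normalised counts with the combination, against 736, 637 and 798 with DMSO (log2 1.45 ± 0.12, adjusted p = 1.64e-06, limma). MRM1, which methylates the large ribosomal RNA, was also higher (1.09 ± 0.15). FASTKD1, of a family that binds mitochondrial RNA, was lower (-1.26 ± 0.22), as was KIAA0391, which encodes the nuclease PRORP that cuts tRNA 5′ ends. KIAA0391 averaged 70.7 ± 8.80 with the combination and 142 ± 20.02 with DMSO (SD, n = 3 each), a log2 fold change of -0.99 ± 0.20 (adjusted p = 0.000627, limma).

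The other listed members belonged to DNA upkeep, tRNA charging and protein quality control. DNA2, a helicase and nuclease of DNA replication, was lower (-1.57 ± 0.15), and TYMP, which degrades thymidine, was higher from a low level (58.3 ± 13.5 with the combination and 20.1 ± 6.54 with DMSO). GARS, a glycine tRNA synthetase of cytosol and mitochondria, was higher (1.05 ± 0.11), and IARS2, the mitochondrial isoleucine enzyme, was lower (2040.0 ± 79.4 with the combination and 4253 ± 200 with DMSO, log2 -1.06 ± 0.09). LONP1, the matrix protease, had 13477, 11045 and 11462 normalised counts with the combination, against 5047, 5541 and 3932 with DMSO (1.32 ± 0.14, adjusted p = 7.09e-06, limma), and HSPE1, the matrix cochaperonin, was lower at -1.32 ± 0.13. TYMP and LONP1 were the 2 members of these 7 lists that the table of ezetimibe alone listed, both higher, and the table of fenofibrate alone listed 0.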

How the data were processed

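RNA of Cal51 cells was extracted with a SPARKeasy kit and made into libraries with a SMARTER mRNA kit, per the labels' protocols. Reads were handled with fastp, HISAT2 (2.0.5) and featureCounts (1.5.0-p3) on hg38, per the submitters' processing notes. Strand setting, the handling of overlapping genes and the authors' test are not given in the sources used here. The authors deposited 3 tables, which hold, per the file headers, a signal per library (unit not named), group means, a log2 fold change, p-values, gene length, position and strand. In the combination table the deposited signal equals whole reads divided by 1 factor per library (100% of values within 0.02 reads), so reads were recovered. Unlisted genes have no values, so total depth is unknown.

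The fit was limma 3.58.1 with trend (R 4.3.3) on log2(value + 1), 2-sided, with Benjamini-Hochberg adjustment over 3508 genes and a threshold of 0.05. It was repeated after subtraction of each library's mean over the 13 mitochondrial mRNAs, which draws these mRNAs towards 0. Single values per library were compared by exact permutation over 6 libraries. Folds are ratios of mean values, and intervals cover counting error only. edgeR 4.0.16 and DESeq2 1.42.0 on the recovered reads were alternatives, and scripts were tested on simulated data.

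The members, gene lists and tests were chosen with earlier results of these data known. All 28 members may be named, and of each list up to 4 genes with the largest change by the authors among those with groups that did not overlap and a mean of 50 or more, or every listed gene where 5 or fewer were listed, and nuclear copies of mitochondrial genes. Of 188 list symbols for mitochondrial gene expression 185 matched a gene.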

Additional observations from a re-analysis of the deposited data

How the results depend on the processing

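All 28 members were called lower with an added 0.5 or 8 in place of 1, with TMM or median-of-ratios scaling, by edgeR and by DESeq2, and 27 or 28 when 1 library was left out. With a mean of at least 10 required, 24 members were left and 24 were called. Median-of-ratios scaling called 2985 of all 3508 genes and the other 5 full-table settings 3502 to 3508, with 1450 called lower under each. The listing brings such calls about, so nothing is read from them. The summed mRNA difference was -2.15 with TMM factors, against -1.94 as reported, and without 1 library it ranged from -2.03 to -1.84. Leaving out 1 library gave -2.80 to -2.57 for summed listed tRNA, -0.77 to -0.65 for tRNA to mRNA, -0.05 to -0.01 for MT-ND6 to plus-strand mRNAs, 0.35 to 0.57 for minus-strand to plus-strand tRNA, 0.12 to 0.21 for complex III to I, -0.45 to -0.27 for complex IV to I and -0.38 to -0.21 for complex V to I. The number of members that differed from the mitochondrial mRNA mean, 11 as reported (8 that fell more, 3 that fell less), ranged from 6 to 12 without 1 library, with fewer libraries in the fit, and was 12 with an added 0.5, 12 with the filter and 14 with an added 8, of which 5 fell more and 9 fell less, so that the balance of directions turned. With an added 8, MT-TM gave 0.46 and MT-TT 0.10 in place of a further fall, by the construction of the added value at few reads. The replicate numbers did not pair the libraries (correlations of deviations of same-numbered libraries 0.09, -0.33 and 0.16 over 2303 genes), and with a replicate block 3508 genes and 28 members were called, 9 members differed from the mRNA mean, all of which fell more, while MT-ND2, MT-ND4 and MT-CYB lost their call (adjusted p = 0.0642, 0.0671 and 0.0837, limma), and the ratios kept their values. Of 497 values of single members under an alternative, 467 kept direction and call and 30 lost the call. Few reads limit the 10 scarcer tRNAs.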
